A study of Rattus norvegicus with 6 samples.

Results

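A set of 10 marker genes of mesothelium and simple epithelium were followed through 6 RNA sequencing libraries of cells grown from rat aorta. The genes were chosen by symbol, with earlier results of these data known: 6 mesothelial markers (Msln, Upk3b, Wt1, Lrrn4, Bnc1 and Muc16) and 4 simple keratins (Krt7, Krt8, Krt18 and Krt19). All 10 were found among the 16770 genes of the deposited count table. The libraries came from 2 inbred strains at 3 months of age, the normotensive Wistar Kyoto rat (WKY) and the spontaneously hypertensive rat (SHR), with 3 libraries each and no further treatment. Pieces of the aorta next to the heart were laid with the inner face down, and the cells obtained were kept in a medium for endothelial cells that held serum and a growth supplement. By the labels the cells are endothelial, batch 1 holds replicates 1 and 2 of both strains, and batch 2 holds replicate 3 of both. Cells of an explant culture were not sorted, as far as the labels say, so other cells of the aortic wall or its surroundings may be among them, and in bulk RNA fewer cells of a type and less RNA per cell cannot be told apart. Separate animals or cultures are given only as a number per strain. A p-value here sets a difference only against the spread of these libraries, which may be technical.

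Mesothelium is the flat cell layer that lines the body cavities and covers the organs in them, including the outer surface of the heart, where it is called epicardium. It keeps features of an epithelium, such as keratin filaments and apical surface proteins, although it arises from mesoderm. Keratins form filaments only as partners of a type II chain (Krt7, Krt8) with a type I chain (Krt18, Krt19), and Krt8 with Krt18 is the usual partnership of simple epithelia. Endothelial cells, the label of these cultures, are better known for vimentin filaments.

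Depth was similar, with 18462032 to 19947286 estimated counts per library. Levels are given as CPM (estimated counts divided by the library total, scaled by the TMM method and expressed per 1e6 counts), and they are compared between libraries for the same gene only, since they are not corrected for gene length. A count of 0 allows up to 3 counts, which corresponded to 0.151 to 0.185 CPM, for counting error only. Endothelial transcripts were mixed, with 3 defining markers low in every library. Cdh5, the endothelial cadherin, had 0 to 0.105 CPM, Pecam1 had 0.106 to 2.19 CPM and Vwf, the von Willebrand factor gene, 0.101 to 0.941 CPM, so these 3 markers do not show the labelled cell type. Of the other genes of the endothelial list, Eng, a TGF-beta co-receptor also made by other stromal cells, had 118 to 628 CPM. The VEGF receptor gene Flt1 had 6.95 to 79 CPM and Egfl7 had 6.43 to 27.2 CPM. The angiopoietin receptor gene Tek had 0.431 to 9.39 CPM and Sox17 had 0 to 3.02 CPM. The remaining genes measured in that list were low, with at most 1.85 CPM in any library. The leukocyte marker Ptprc had 0 counts in all 6 libraries. Across genes tested, log2 levels in libraries of the same batch correlated at 0.892 to 0.971 and in libraries of different batches at 0.784 to 0.856.

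The promoters of 5 of the markers are shown first, because these 5 genes (Upk3b, Lrrn4, Bnc1, Krt8 and Krt18) shared an order of libraries, with SHR replicate 3 highest and SHR replicate 2 next, that is described in the paragraphs that follow. Each window runs from 250 bases before to 50 bases after the annotated start and is printed 5′ to 3′ on the strand of the gene, from RefSeq on the GRCr8 assembly. Capitals mark matches, on either strand, to the motifs searched, which were, for the TATA box, the letters TATAAA, for the GC box the letters GGGCGG, for AP-1 the letters TGANTCA, for TEAD factors the letters GGAATG, and for WT1 the letters GCGTGGG.
Upk3b promoter, chr12:26274191-26274490, minus strand: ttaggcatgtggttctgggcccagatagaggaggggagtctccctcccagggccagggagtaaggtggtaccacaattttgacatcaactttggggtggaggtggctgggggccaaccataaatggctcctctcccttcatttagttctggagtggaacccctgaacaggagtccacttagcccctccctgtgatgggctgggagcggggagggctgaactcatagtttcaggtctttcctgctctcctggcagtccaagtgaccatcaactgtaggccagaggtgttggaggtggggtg
Lrrn4 promoter, chr3:140603937-140604236, minus strand: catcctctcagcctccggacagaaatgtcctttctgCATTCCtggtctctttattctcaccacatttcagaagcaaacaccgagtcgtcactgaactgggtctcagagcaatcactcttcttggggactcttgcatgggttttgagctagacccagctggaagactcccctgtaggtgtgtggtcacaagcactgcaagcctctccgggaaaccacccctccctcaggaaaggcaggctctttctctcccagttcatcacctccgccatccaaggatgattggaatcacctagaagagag
Bnc1 promoter, chr1:145352485-145352784, minus strand: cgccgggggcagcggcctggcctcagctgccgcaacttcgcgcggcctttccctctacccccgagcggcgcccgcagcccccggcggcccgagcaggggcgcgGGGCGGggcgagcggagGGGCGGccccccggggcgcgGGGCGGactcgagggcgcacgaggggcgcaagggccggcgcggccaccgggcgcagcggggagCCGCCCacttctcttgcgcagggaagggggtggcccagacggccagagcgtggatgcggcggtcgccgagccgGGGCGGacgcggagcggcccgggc
Krt8 promoter, chr7:135010290-135010589, minus strand: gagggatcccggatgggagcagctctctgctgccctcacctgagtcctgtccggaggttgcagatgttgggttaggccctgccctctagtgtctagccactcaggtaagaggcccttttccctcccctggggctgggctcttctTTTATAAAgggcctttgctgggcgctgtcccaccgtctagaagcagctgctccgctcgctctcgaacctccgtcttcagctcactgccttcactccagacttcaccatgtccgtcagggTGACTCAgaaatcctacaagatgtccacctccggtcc
Krt18 promoter, chr7:135035918-135036217, plus strand: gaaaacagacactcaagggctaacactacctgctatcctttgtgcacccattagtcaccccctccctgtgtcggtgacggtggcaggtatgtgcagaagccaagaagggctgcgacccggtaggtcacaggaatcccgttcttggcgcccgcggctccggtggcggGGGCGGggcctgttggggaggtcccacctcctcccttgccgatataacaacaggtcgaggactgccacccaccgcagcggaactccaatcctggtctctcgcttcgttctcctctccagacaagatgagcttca
Of the 10 markers, 6 matched an entry of that promoter table (the 5 shown and Wt1). No motif was found in all 5 windows shown. Bnc1 had 5 GC box matches and Krt18 had 1 GC box match. Krt8 had 2 overlapping TATA box matches, at -106 and -104 from the annotated start, and 1 AP-1 match at 13. Lrrn4 had 1 TEAD match, and Upk3b had none of the 5 motifs. The letters ATG stand at the annotated start of Krt8, so that position may be a start codon, and the AP-1 letters lie after it. Whether transcription starts there was not tested. Among all 33469 promoter windows of this length, 33.1% held the GC box, 14.2% the TATA box, 14.2% the TEAD letters, 7.33% the AP-1 letters and 4.33% the WT1 letters. Base composition differed as well. The Bnc1 window had 82.7% G and C with 48 CpG dinucleotides, above 99.7% of windows in G and C content, while the Upk3b window had 56.7% and 1 CpG. The other windows had 52.3% (Lrrn4), 59% (Krt8) and 60.3% (Krt18), against a median of 51.7% over all windows. In the RefSeq table Krt8 and Krt18 are next to each other on chromosome 7, where Krt7 also lies among type II keratin genes, and Krt19 lies on chromosome 10 beside Krt15.

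The markers shared a high level in SHR replicate 3, where all 10 lay above their own mean log2 level over the 6 libraries, and differed in the other libraries. Since the markers were chosen with earlier results of these data known, the shares over all genes below are given for scale and are not a test. Of the 10 markers, 9 had their highest level in SHR replicate 3, against 26.3% of the 16193 genes with a count and 24.4% of the genes tested, and Krt7 had its highest level in SHR replicate 2. The order with SHR replicate 3 first and SHR replicate 2 second was found in 6 markers (Upk3b, Lrrn4, Bnc1, Muc16, Krt8 and Krt18), against 3.11% of genes with a count and 2.15% of those tested. With SHR replicate 3 left out, 7 of the 9 markers that still had a count were highest in SHR replicate 2, against 17.4% of genes. All 10 were higher in SHR replicate 3 than in WKY replicate 3, the other batch 2 library, as were 48.8% of genes with a count.

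**Figure D1:**
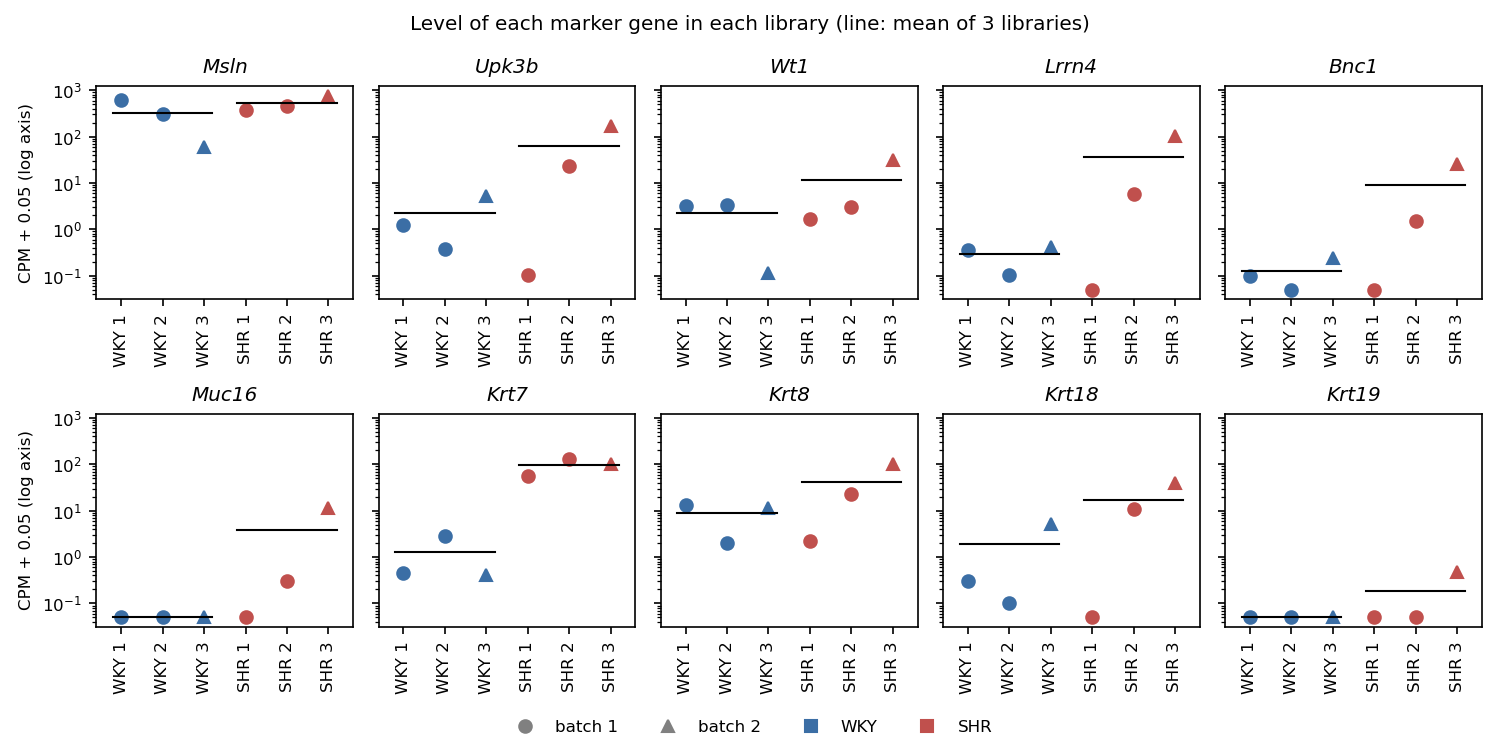
Level of each marker gene in each library, as CPM plus 0.05 on a log axis, with circles for batch 1, triangles for batch 2, blue for WKY, red for SHR and a line at the mean of the 3 libraries of a strain. Krt7 is the gene whose SHR points (57.3 to 128 CPM) all lie above its WKY points (0.369 to 2.86 CPM); Upk3b, Lrrn4, Bnc1, Muc16, Krt8 and Krt18 have their highest points in SHR replicates 3 and 2.

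Msln encodes mesothelin, a surface protein anchored by a lipid that is the classical antigen of mesothelial cells. It was abundant in 5 libraries, with 617, 306 and 60.6 CPM in WKY replicates 1 to 3 and 379, 455 and 762 CPM in SHR replicates 1 to 3. The low value was that of WKY replicate 3, and the strains overlapped. The means were 328 ± 279 CPM in WKY against 532 ± 203 CPM in SHR (SD, n = 3 each). Compared with the batch 1 libraries of its strain, batch 2 was lower in WKY (log2 difference -2.84) and higher in SHR (0.88).

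Muc16 encodes the large membrane mucin known as CA125, which binds mesothelin. Its counts were 0 in all WKY libraries and in SHR replicate 1, 5 in SHR replicate 2 and 213 in SHR replicate 3. Signal of this gene was therefore found in SHR replicate 3 almost alone, at 11.1 CPM, which was at least 60.3-fold higher than in WKY replicate 3 at a floor of 3 counts in that library. Msln was thus present at 306 to 617 CPM in WKY replicates 1 and 2 and SHR replicate 1, where no Muc16 was counted.

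Upk3b encodes uroplakin 3B, a membrane protein of urothelium and mesothelium. It had 1.16, 0.317 and 5.17 CPM in WKY replicates 1 to 3 and 0.0525, 23.4 and 167 CPM in SHR replicates 1 to 3. SHR replicate 1 had the lowest level of all libraries, from 1 count, and SHR replicates 2 and 3 the highest. Between SHR replicates 2 and 3 the ratio was 7.12 (95% interval 6.46 to 7.87, exact and for counting error only). Within WKY, batch 2 had the highest level, 4.47 times that of replicate 1 (2.79 to 7.43). The gene next to it, Upk3bl1, a close relative that could share its reads, went the other way, with 10, 10 and 32 counts in WKY and 1, 0 and 0 counts in SHR. Values of Upk3b at this low level are therefore uncertain, while the level in SHR replicate 3 rests on 3191 counts.

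Lrrn4, a leucine-rich repeat membrane protein used as a mesothelial marker, had 6, 1 and 6 counts in WKY and 0, 112 and 1990 counts in SHR. The level in SHR replicate 3 was 104 CPM, 18.2 times that in SHR replicate 2 (15 to 22.2). Bnc1, a zinc finger transcription factor of keratinocytes and mesothelium, had 1, 0 and 3 counts in WKY and 0, 29 and 483 counts in SHR. In SHR replicate 3 it reached 25.2 CPM, 17.1 times its level in SHR replicate 2 (11.7 to 25.7). Both genes were thus close to the detection limit in the WKY libraries and in SHR replicate 1, and present in the same 2 SHR libraries as Upk3b. Low counts in most libraries also kept them, with Muc16 and Krt19, outside the tests. The tests asked for at least 10 counts or the equivalent CPM in 3 libraries.

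Wt1, the Wilms tumour transcription factor of epicardium and mesothelium, followed another pattern. It had 3.17, 3.28 and 0.0615 CPM in WKY against 1.63, 2.96 and 30.8 CPM in SHR. The 4 batch 1 libraries lay between 1.63 and 3.28 CPM, the batch 2 WKY library was the lowest, from 1 count, and the batch 2 SHR library was the highest, from 590 counts. The ratio of the batch 2 libraries was 501 with a counting interval of 89.6 to 19800. SHR replicate 2, which was second highest for Upk3b, Lrrn4 and Bnc1, did not stand apart from the WKY batch 1 libraries in Wt1.

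Among the keratins, Krt7 differed most between strains. This type II chain of simple and ductal epithelia had 0.402, 2.86 and 0.369 CPM in WKY against 57.3, 128 and 103 CPM in SHR. All SHR libraries lay above all WKY libraries, and Krt7 was the only one of the 10 markers of which this was true, against 4.63% of genes tested and 4.59% of genes with a count that were higher in every SHR library. SHR replicate 1, which had 0 or 1 count of Upk3b, Lrrn4, Bnc1, Muc16 and Krt18, had 1090 counts of Krt7. The means were 1.21 ± 1.43 CPM in WKY against 96 ± 35.7 CPM in SHR (SD, n = 3 each).

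Krt8, the type II partner in simple epithelia, had 13.3, 1.96 and 11.3 CPM in WKY against 2.21, 22.9 and 99.9 CPM in SHR. Krt18, its type I partner, had 0.251, 0.0529 and 5.17 CPM in WKY against 0, 10.7 and 39.4 CPM in SHR. Both were highest in SHR replicate 3 and second in SHR replicate 2, and in both the strains overlapped. The number of Krt8 counts per Krt18 count was 2.15, 2.19 and 2.54 in SHR replicate 2, WKY replicate 3 and SHR replicate 3, the libraries with the most Krt18. It was 53 and 37 in WKY replicates 1 and 2, where Krt18 had 5 counts and 1 count, and SHR replicate 1 had 42 counts of Krt8 and none of Krt18. Keratin genes have close relatives and processed copies, and the sources used here do not give how reads of these were assigned, so low keratin counts are uncertain. Krt19, a type I chain of simple epithelia that lacks most of the tail, had 8 counts in SHR replicate 3 and 0 in the other 5 libraries, so Krt7 in SHR replicate 1 stood at 57.3 CPM with neither Krt18 nor Krt19 counted.

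**Figure D2:**
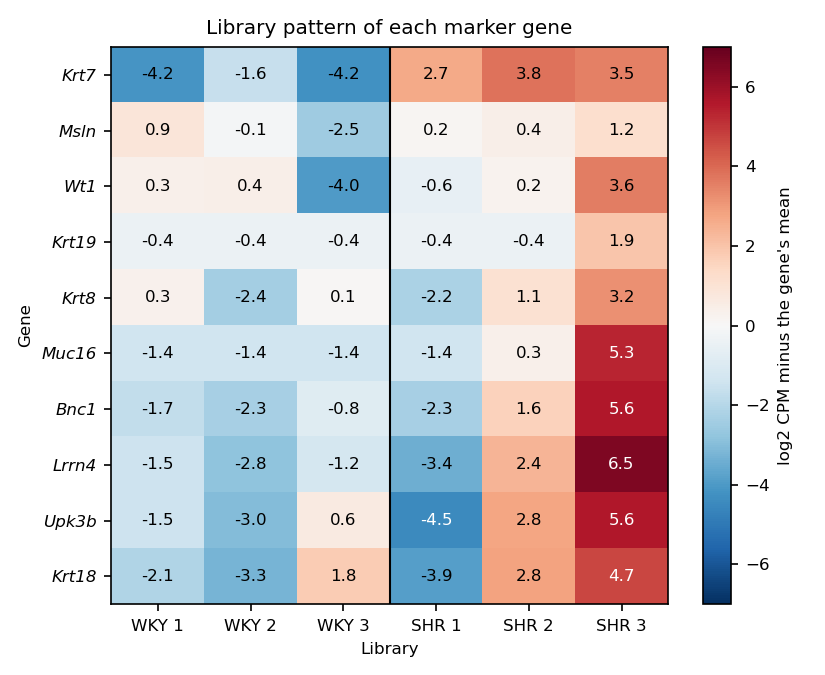
Level of each marker gene in each library as log2 CPM (prior count 2) minus the mean of that gene over the 6 libraries, red for above and blue for below. Krt7 is red in the 3 SHR columns; Upk3b, Krt18, Lrrn4 and Bnc1 are red mainly in SHR replicates 2 and 3; Msln and Wt1 have their lowest value in WKY replicate 3.

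Likeness between markers was described by the root mean square difference of their centred log2 CPM over the 6 libraries. The closest markers were Upk3b and Krt18 (0.71), Bnc1 and Lrrn4 (0.73) and Bnc1 and Muc16 (0.78), and the least alike were Upk3b and Krt7 (3.85). Among 10802 other genes with at least 5 CPM in some library, those most like Msln, the mesothelial marker taken as reference, were Cd68 (0.36), Ccbe1 (0.40), Rnf144b (0.42), Dtx4 (0.43) and F3 (0.45). Each had its lowest level in WKY replicate 3, as follows from their choice by likeness to Msln. F3, the tissue factor gene, had 204, 165 and 25.8 CPM in WKY against 250, 189 and 191 CPM in SHR. Those most like Krt7 were Dpt (0.64), Gstt3 (1.11), Plac8 (1.12), Dlk1 (1.22) and Flt3 (1.27). Dpt, the matrix protein dermatopontin of fibroblasts, had 0.101, 0.741 and 0.0615 CPM in WKY against 25.8, 15.6 and 42.8 CPM in SHR.

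The comparison of SHR with WKY asked whether the hypertensive strain differed. It was tested with the quasi-likelihood test of edgeR, with batch and strain as terms, for the 6 markers that passed the filter (Msln, Upk3b, Wt1, Krt7, Krt8 and Krt18). No marker was called at an adjusted p below 0.05, where 0.254% of all 12614 genes tested were called (32 genes, and 6 with the replicate number as a block). Krt7 and Upk3b were higher at an unadjusted p below 0.05, which 1675 of all genes met in either direction. DESeq2 called Krt7 alone of the 6 and 695 of all genes tested, and limma on the deposited log2 values called Krt7 alone of the 6 and 41 of all genes. Krt7 had the largest difference of the 6, 6.36 on the log2 scale (SE 0.9, unadjusted p = 0.000741, adjusted p = 0.103 by edgeR), an 82.3-fold difference that was 6.12 within batch 1 and 7.76 in batch 2. Its adjusted p was 3.27e-08 by DESeq2, 0.0193 with limma on the deposited log2 values and 0.0411 by edgeR without WKY replicate 2, and it lay between 0.0998 and 0.313 in the other edgeR alternatives.

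Upk3b was 4.4 higher on the log2 scale (SE 1.6, unadjusted p = 0.0386, adjusted p = 0.358 by edgeR), and without SHR replicate 2 the value was 2.4. Krt18 differed by 4.01 (SE 1.68, adjusted p = 0.4 by edgeR), Krt8 by 1.49 (SE 1.2), Wt1 by 1.14 (SE 1.83) and Msln by 0.95 (SE 0.92). Each of these differences except that of Upk3b had an SE that left the unadjusted p above 0.05. The differences of Msln and Wt1 turned negative (-0.15 and -0.49) without WKY replicate 3 and likewise without SHR replicate 3. The median over all genes tested was -0.02. With no filter on low counts the adjusted p was 0.388 for Lrrn4, 0.314 for Bnc1, 0.305 for Muc16 and 0.556 for Krt19 by edgeR.

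Batch 2 was compared with batch 1 in the same fit, because 9 of the markers peaked in a batch 2 library. Of the 6 markers tested 0 were called by edgeR, 0 had an unadjusted p below 0.05 and DESeq2 called 0. Of all 12614 genes, edgeR called 43.5% in this comparison (21% higher and 22.5% lower in batch 2). An unadjusted p below 0.05 by edgeR was met by 53%, and DESeq2 called 6435 genes. Krt18 had a log2 difference of 3.75 (SE 1.56, adjusted p = 0.108 by edgeR), and Upk3b by 3.43 (SE 1.45, adjusted p = 0.112). Within WKY alone, 4 of the markers (Upk3b, Lrrn4, Bnc1 and Krt18) were highest in the batch 2 library, a share like the 40.2% of genes with a count. For Krt18 that was 84 counts against 5 and 1, and for Lrrn4 it was 6 counts against 6 and 1. Without SHR replicate 1, Upk3b (2.83, adjusted p = 0.0182) and Krt18 (3.39, adjusted p = 0.0484) were called by edgeR, as was Bnc1, which then passed the filter (3.78, adjusted p = 0.0212). In that fit 3 of the 8 markers tested and 4335 of 12978 genes were called. Krt18 was also called without SHR replicate 2 (6.84, adjusted p = 0.0312 by edgeR), where 1 of 6 markers and 4111 of 12955 genes were called. The marker counts are to be read against those over all genes. Wt1 was called higher without WKY replicate 3 (3.73, adjusted p = 0.00774) and lower without SHR replicate 3 (-5.55, adjusted p = 0.0138), and Msln lower without SHR replicate 3 (-2.92, adjusted p = 0.0199), all by edgeR. In these 3 fits batch 2 was a lone library, SHR replicate 3 or WKY replicate 3, which was assumed to vary like the batch 1 libraries, so they compare that library with batch 1.

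Whether the strain difference was the same in both batches was tested as an interaction of batch with strain, which left 2 residual degrees of freedom. No marker and 0% of all genes were called by edgeR, with 1597 genes and 2 markers at an unadjusted p below 0.05. These 2 were Wt1, with a difference of 9.29 on the log2 scale (SE 0.87, unadjusted p = 0.000121, adjusted p = 0.127 by edgeR), and Msln, with 3.78 (SE 0.67, unadjusted p = 0.00299, adjusted p = 0.206 by edgeR). DESeq2 called both (adjusted p = 3.95e-06 and 7.53e-07) and 451 genes in all. By edgeR the difference was 9.3 for Wt1 and 3.17 for Msln without WKY replicate 1, and 9.26 and 4.19 without WKY replicate 2. In these fits only the batch 1 libraries of SHR were replicated, so a call there rests on the spread of those libraries. The other 4 markers had an SE of 1.95 to 3.59 in this comparison, so a difference between batches in their strain effect was not resolved.

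**Figure D3:**
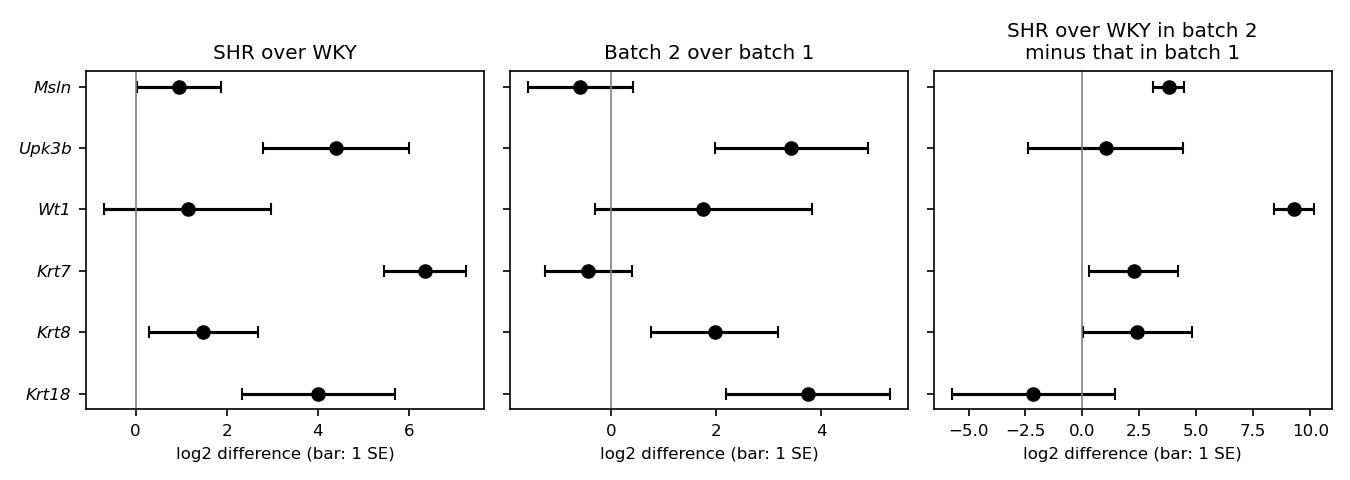
Fitted log2 differences of the 6 markers that were tested, for SHR over WKY, batch 2 over batch 1 and the strain difference in batch 2 minus that in batch 1, with bars of 1 SE and a separate horizontal scale in each panel. Krt7 lies farthest from 0 in the first panel (6.36) and Wt1 in the third (9.29).

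The log2 table that the authors deposited gave another order of libraries for part of the markers. In it the mean of batch 1 equals the mean of batch 2 in every gene (largest difference 7.5e-09), so a difference between batches that counts show is not in it. In the authors' deposited table SHR replicate 3 was highest for 6 markers and SHR replicate 2 for 4, against 9 and 1 from the counts. Upk3b stood at 9.48 in SHR replicate 2 and 9.02 in SHR replicate 3 of the authors' deposited table, whereas its counts were 459 and 3191. Krt18 stood at 8.13 and 7.09 in the authors' deposited table, with 209 and 753 counts. For Krt7 the strains did not overlap in the authors' deposited table either, with 5.93 to 6.75 in WKY and 9.40 to 10.28 in SHR.

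**Figure D4:**
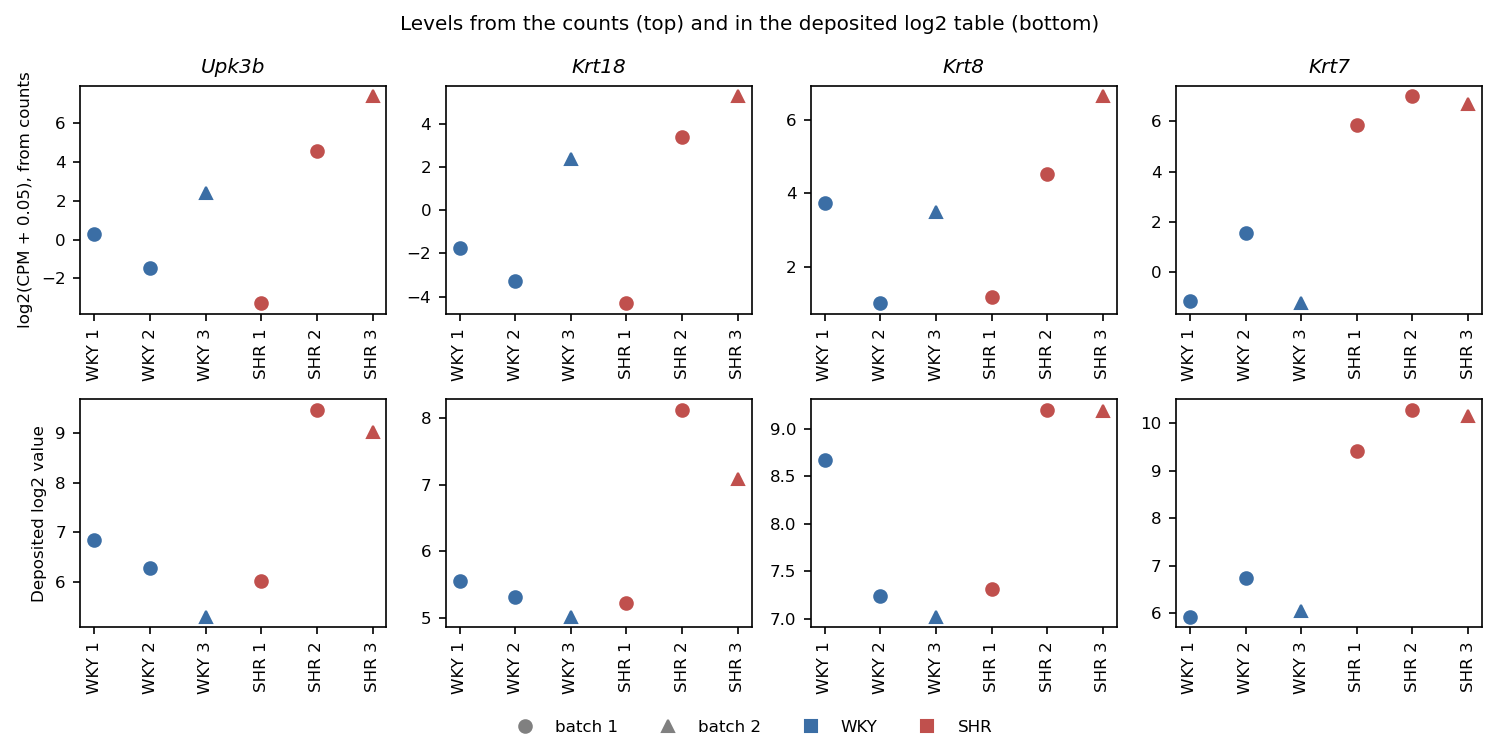
Levels of Upk3b, Krt18, Krt8 and Krt7 by library, as log2 of CPM plus 0.05 from the counts (top row) and as log2 values of the authors' deposited table (bottom row), with a separate vertical scale in each panel. Upk3b and Krt18 are highest in SHR replicate 3 in the top row and in SHR replicate 2 in the bottom row, and Krt7 keeps its SHR points above its WKY points in both rows.

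Other genes of mesothelium and epicardium were taken from a list of 20, all of which had counts. This list too was chosen with earlier results of these data known, so shares set beside it are not a test. Of these, 14 were highest in SHR replicate 3, against 26.3% of genes with a count, and 8 had SHR replicate 3 first and SHR replicate 2 second (Calb2, Pdpn, Gpm6a, Cldn15, Pkhd1l1, Aldh1a2, Gata5 and Slc39a8). Of the 15 tested, 1 was called higher in SHR by edgeR, an unadjusted p below 0.05 was met by 4 that were higher and 1 that was lower, and 4 were called higher in batch 2. Over all genes tested, 0.103% were called higher in SHR, 13.3% had an unadjusted strain p below 0.05 in either direction and 21% were called higher in batch 2, shares against which the counts of this and the following lists are to be read. Gpm6a, a membrane glycoprotein found in neurons and mesothelium, had 0.201, 0.159 and 0.185 CPM in WKY against 0.631, 4.39 and 31.6 CPM in SHR (log2 difference 5.09, SE 1.2, adjusted p = 0.229 by edgeR). Cldn15, a claudin of tight junctions, had 0.653, 1.8 and 1.78 CPM in WKY against 1.94, 7.81 and 57.1 CPM in SHR. In both the SHR libraries lay above the WKY libraries, and SHR replicate 3 stood far above the rest.

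The called gene was Tcf21, a transcription factor of epicardium and fibroblasts, with 0 to 0.123 CPM in WKY against 1.21, 1.17 and 24.1 CPM in SHR. Its difference was 6.67 on the log2 scale (SE 0.68, adjusted p = 0.0373 by edgeR). Tcf21 was also called higher in batch 2 (log2 difference 4, SE 0.55, adjusted p = 0.00392 by edgeR), together with the epicardial factor Tbx18, the factor Gata6 and Upk1b. Tbx18 had 11.7, 5.92 and 58.3 CPM in WKY against 5.47, 9.9 and 49.5 CPM in SHR, a difference between batches of 2.71 on the log2 scale (SE 0.34, adjusted p = 0.00318 by edgeR). Gata6 rose in batch 2 (log2 difference 1.63, SE 0.17, adjusted p = 0.00202 by edgeR), as did Upk1b, a uroplakin of the tetraspanin family (2.26, SE 0.48, adjusted p = 0.0163 by edgeR), with 89.4 CPM in WKY replicate 3 and 174 CPM in SHR replicate 3. The interaction, which was 9.29 for Wt1, was -0.06 for Tbx18 (SE 0.77) and -0.29 for Gata6 (SE 0.33). These 2 were not typical of the list, where 12 of the 15 genes tested had a positive interaction. The median of the 15 was 3.58, against -0.04 over all genes tested. Pdpn, with 5.87, had 107, 119 and 4 CPM in WKY against 121, 168 and 303 CPM in SHR, so like Wt1 it was lowest in WKY replicate 3 and highest in SHR replicate 3. Sema3d, a secreted semaphorin of the epicardium, had 45.6 ± 18.1 CPM in WKY against 25.1 ± 3.69 CPM in SHR (SD, n = 3 each; adjusted p = 0.242 by edgeR).

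Near relatives of the markers gave low or flat values. Of 12 that were measured, 4 passed the filter and 0 were called between strains by edgeR (1 higher at an unadjusted p below 0.05, Bnc2). Bnc2, the other basonuclin, had 13.5, 17.6 and 13.2 CPM in WKY against 19, 19.9 and 29.4 CPM in SHR. Mslnl, the mesothelin-like gene that neighbours Msln, was called higher in batch 2 (log2 difference 2.31, adjusted p = 0.0101 by edgeR), with at most 5.35 CPM, whereas Msln was lowest in WKY replicate 3. Of 17 other keratin genes, 13 had a count and 1 passed the filter. That gene, Krt10, had 4.52 to 6.58 CPM in 5 libraries and 1.15 CPM in SHR replicate 3. Of the 13, 3 were highest in SHR replicate 3 and 1 had SHR replicate 3 first and SHR replicate 2 second. The following 3 were singled out after their values were seen. Krt14, a type I chain of basal and stratified epithelia, had that order, with 13 counts in SHR replicate 2, 164 in SHR replicate 3 and 0 in the other 4 libraries. Krt79 went the other way, with 42, 22 and 1 counts in WKY and 3, 0 and 0 in SHR, as did Krt23, with 4, 2 and 7 counts in WKY and 2, 0 and 0 in SHR.

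Genes that define epithelia in general were mostly at or near 0. Of 17 junction and identity genes measured, 4 passed the filter. Epcam, the epithelial adhesion molecule, had 12 counts in WKY replicate 1 and 0 in the other libraries. Cdh1, the E-cadherin gene, had 0, 0 and 1 counts in WKY and 1, 15 and 47 counts in SHR, again with SHR replicate 3 first and SHR replicate 2 second. Cdh3, the P-cadherin gene, was higher in batch 2 (log2 difference 2.31, adjusted p = 0.014 by edgeR), with 63.5 CPM in WKY replicate 3 and 71.1 CPM in SHR replicate 3, as was Spint2, a protease inhibitor (0.73, adjusted p = 0.0118). Neither was called between strains, and 0 of the 4 genes tested had an unadjusted p below 0.05 there.

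In the list of filament partners and desmosome genes, 12 of 15 passed the filter. None was called between strains by edgeR, with 2 lower at an unadjusted p below 0.05, and 5 were called higher in batch 2. Vim, the vimentin gene, had 3060, 4250 and 8550 CPM in WKY against 3740, 3360 and 12300 CPM in SHR, so it was high in all libraries. Dsp, the desmoplakin gene, which ties keratin filaments to desmosomes and was singled out after its values were seen, had 1, 0 and 0 counts in WKY and 0, 65 and 607 counts in SHR. Of the plakophilin genes, Pkp1 had 241, 68.3 and 243 CPM in WKY against 34.1, 49.8 and 21.3 CPM in SHR (log2 difference -2.42, adjusted p = 0.252 by edgeR), with every SHR library below every WKY library, as in 5.06% of genes tested. Pkp2 had its highest level in WKY replicate 3 (57.9 CPM) and was called higher in batch 2 (2.58, adjusted p = 0.00388 by edgeR). The desmosome genes thus did not share 1 order of libraries.

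Markers of other cells moved between the same libraries. Summed over 9 fibroblast genes the level was 5450 to 14200 CPM in WKY against 12600 to 21900 CPM in SHR, with its maximum in SHR replicate 3. That maximum rests largely on Gsn, at 11400 CPM in SHR replicate 3 against 218 to 2600 CPM in the other libraries. Col1a1, another large part of the sum, had 10800 CPM in WKY replicate 3 against 4580 CPM in SHR replicate 3. Of the 9 genes, 7 were highest in SHR replicate 3, and 0 were at a count of 0 in any library. Of the 9, 0 were called between strains by edgeR and 6 were higher at an unadjusted p below 0.05. Dcn, the decorin gene, had 386, 245 and 1310 CPM in SHR and 8.3 to 61.2 CPM in WKY, and Pdgfra had 261 to 459 CPM in SHR and 170 to 252 CPM in WKY. Summed over 9 smooth muscle genes the level was 759, 872 and 8480 CPM in WKY against 956, 875 and 2150 CPM in SHR. Of the 8 tested, 7 were called higher in batch 2 by edgeR and 0 between strains (2 lower at an unadjusted p below 0.05). WKY replicate 3, the library with the lowest Msln and Wt1, held the maximum of 7 of the 9 genes, among them Acta2 (3590 CPM) and Myh11 (341 CPM). The other 2, Cnn1 and Actg2, were highest in SHR replicate 3, at 17.3 and 27.1 CPM against 7.56 and 3.38 CPM in WKY replicate 3. Summed over 15 endothelial genes the level was 220 to 653 CPM in WKY against 225 to 331 CPM in SHR. Most of that sum was Eng, with 118 to 628 CPM in WKY and 146 to 280 CPM in SHR. In a library 1 to 5 of these genes were at 0. Of 6 transition factors that repress epithelial genes, 5 were called higher in batch 2 by edgeR and 0 between strains (1 higher at an unadjusted p below 0.05), and Snai1 reached 227 CPM in WKY replicate 3 and 384 CPM in SHR replicate 3. The part of these cell markers in the levels of the mesothelial genes and keratins was not tested.

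**Figure D5:**
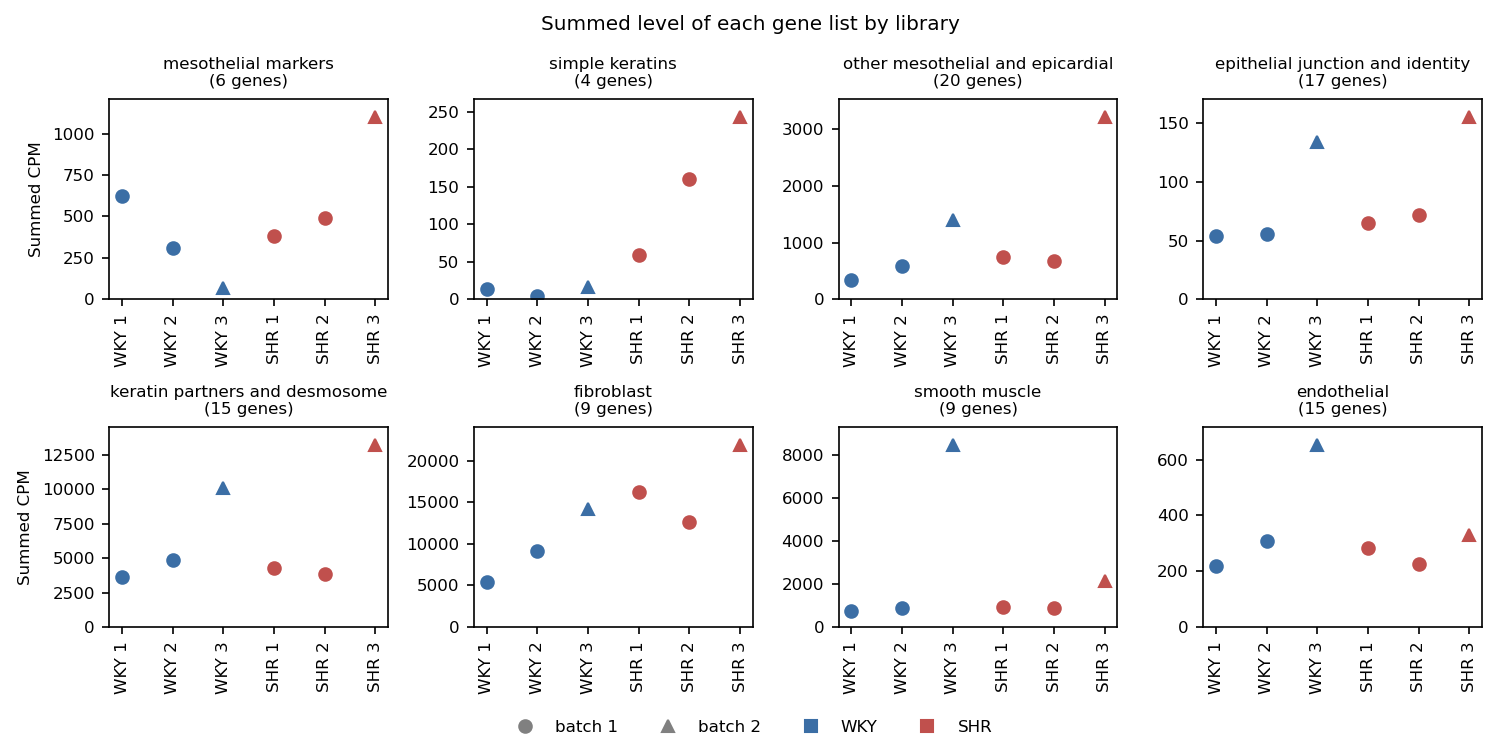
Summed CPM of the genes of each list in each library, on linear axes that start at 0, with circles for batch 1, triangles for batch 2, blue for WKY and red for SHR. The mesothelial sum, which is mostly Msln, is lowest in WKY replicate 3, and the keratin sum is highest in the 3 SHR libraries. The fibroblast sum peaks in SHR replicate 3, where Gsn gives 11400 CPM of it, and the smooth muscle sum in WKY replicate 3.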

How the data were processed

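RNA was sequenced from 6 cultures labelled aortic endothelial cells, 3 of WKY and 3 of SHR rats, as paired reads on a DNBSEQ instrument, per the labels' protocols. The authors deposited estimated counts per gene, not normalized, of which 8.96% were not whole (tolerance 0.001). Per the submitters' processing notes the build was Rnor_6.0 and the tools were RSEM 1.2.28, Bowtie2 2.4.4 and DESeq2 1.42.1, with no roles stated; for strand and gene copies, nothing was found in the labels. The authors also deposited log2 values per gene, and how these were made was not stated; their batch means are equal in every gene.

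Estimated counts were rounded and tested with edgeR 4.0.16 in R 4.3.3 (filterByExpr by strain with a minimum of 10 counts, TMM factors, robust glmQLFit, glmQLFTest, two-sided) on 12614 genes, with Benjamini-Hochberg adjustment over all of them and a threshold of 0.05. Fits used batch and strain (3 residual degrees of freedom) or these with their interaction (2). DESeq2 1.42.0, limma 3.58.1, other filters and scaling, a replicate block and leaving out each library were alternatives. The code was tested on simulated data. The 10 markers and all gene lists were chosen with earlier results of these data known. Named besides the markers were, per list, up to 4 genes with the smallest p by strain and by batch, defining markers, and the 5 genes most like a reference marker of each class (the one with the largest CPM in any library, not corrected for gene length); others are said to be chosen after their values were seen, or are listed for their library order. Deviations of same-numbered libraries from their strain means correlated at 0.30, 0.40 and 0.66, and those of numbers 1 and 2 crossed at 0.48 and 0.49; within batch 1 the difference of replicates 1 and 2 in one strain correlated at -0.20 with that in the other. Numbers 1 and 2 share batch 1 and number 3 marks batch 2, so pairing of number 3 cannot be told apart from batch. Within batch 1 these correlations do not show pairing by number. The replicate number was fitted as a block only as an alternative.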

Additional observations from a re-analysis of the deposited data

Results flagged for a closer look

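Msln and Wt1 moved in opposite directions with batch in the 2 strains. Batch 2 was lower than both batch 1 libraries in WKY and higher than both in SHR, for Msln (986 counts against 5782 and 12286 in WKY, 14585 against 7221 and 8919 in SHR) and for Wt1 (1 count against 62 and 63, 590 against 31 and 58). For Wt1 the strain difference was also nominally opposite, with both SHR libraries of batch 1 below both WKY libraries. SHR replicate 2, with 58 counts, was close to the 62 and 63 counts of WKY. Within batch 1 alone the Wt1 difference was -0.50 on the log2 scale (SE 0.43, unadjusted p = 0.303 by edgeR), so its direction was not resolved. The difference between the batches in the strain effect was 3.78 on the log2 scale for Msln (SE 0.67, adjusted p = 0.206 by edgeR) and 9.29 for Wt1 (SE 0.87, adjusted p = 0.127 by edgeR). Each batch 2 value is from 1 library.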

How the results depend on the processing

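With 3 libraries a strain and 1 batch 2 library in each, the tests resolve large differences only. Of the 10 markers, 4 reached the minimum count in too few libraries to be tested. Between strains, 1 marker (Krt7) was called by DESeq2 and by limma on the deposited values, and 0 to 1 with a library left out (edgeR; Krt7 without WKY replicate 2). Of all genes 32 were called, against 695 by DESeq2, 41 by limma on the deposited values, 2 without the batch term, 6 with the replicate block and 0 to 65 with a library left out. With the replicate block no marker was called (Krt7 6.64 on the log2 scale, adjusted p = 0.12 by edgeR), so it changed no call among the markers. Between batches, 1 marker was called without a filter, where 5376 of 16193 genes were called. That marker, Muc16, had 213 counts in SHR replicate 3, 5 in SHR replicate 2 and 0 elsewhere. With a batch 1 library left out, 0 to 3 markers and 4111 to 4807 of all genes were called. In the interaction, 2 markers (Wt1 and Msln) and 451 genes were called by DESeq2, 4 genes without a filter, and 0 to 2 markers and 0 to 248 genes with a library left out; it could not be fitted without either batch 2 library. Direction turned between strains for Msln (-0.15 to 1.67 with a library left out) and Wt1 (-0.49 to 3.02), the lowest values without either batch 2 library, and within batch 1 alone (-0.15 and -0.50). Between batches it turned for Msln without WKY replicate 3 (0.85, lowest value -2.92), for Wt1 without SHR replicate 1 (-0.06) or SHR replicate 3 (-5.55, highest value 3.73), and for Krt7 without WKY replicate 2 (0.09), WKY replicate 3 (0.14, lowest value -2.10) or the strain term (0.13). In the interaction it turned for Upk3b without WKY replicate 1 (-0.20, highest value 8.64) and for Krt18 without SHR replicate 2 (7.49, lowest value -3.59). The cause was not tested. The count of 9 markers highest in SHR replicate 3 was 9 with DESeq2 size factors and with counts that were not scaled, 7 (in SHR replicate 2) without that library and 6 in the deposited log2 values, alternatives chosen after seeing the data.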
